A study of Mus musculus with 12 samples.

Results

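Macrophages in the gonadal white fat of male mice were followed through 41 genes, compared between mice with and without Gadd45a and Ing1. The genes were chosen by name for the cell type, with earlier results of these data known. A gene was read at the probe that carries its RefSeq accession, or at the brightest where several do. This gave 39 of the 41 genes, out of 31455 genes or unnamed probes tested, and all 39 passed the filter on dim probes. The other 2, Cd68 and Clec7a, could not be matched by accession and were not analysed here. The 39 fall into 13 lineage genes shared by most macrophages, 6 genes of resident macrophages, 6 of lipid-associated macrophages, 9 of inflammatory macrophages and 5 of alternative activation and scavenging.

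The mice were C57BL/6N males aged 59 to 67 days of 4 genotypes, obtained by interbreeding Gadd45a-deficient and Ing1-deficient mice: wild type (WT), Gadd45a-/- (Gadd45a-KO), Ing1-/- (Ing1-KO) and Gadd45a-/-;Ing1-/- (DKO). Where the labels hold, the gene is lost in every cell of the body, so a difference in fat need not arise in macrophages. Each genotype has 3 arrays, each hybridised with Cy3-labelled RNA pooled from 3 of 9 animals, so that the spread between arrays is one between pools. Gadd45a encodes a stress-induced protein with roles in DNA repair and demethylation, and Ing1 a reader of a methylated histone mark.

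Fat macrophages depend on signals through the receptor Csf1r and on the transcription factor PU.1, the product of Spi1. Resident macrophages carry scavenger receptors such as Cd163 and Mrc1 and line vessels, while lipid-associated macrophages, marked by Trem2 and Gpnmb, gather around fat cells and take up lipid. Monocytes enter from blood through the chemokine receptor Ccr2 and carry the pattern receptors and oxidase genes of inflammation.

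PU.1 binds DNA around the letters GAGGAA, and its longer recognition letters GAGGAAGT were searched on both strands of the RefSeq promoter windows of assembly GRCm38.p6, each from 250 bases before to 50 after a gene's start. Windows were found for 27 of the 39 genes, 30 windows in all. GAGGAAGT stood in 3 of these 30 windows (10.0%), against 1052 of 32851 windows of all genes (3.20%). The shorter GAGGAA, which the longer letters contain, stood in 14 of 30 windows (46.7%) against 28.3% of all windows. Of the 12 windows of genes called lower in DKO against Gadd45a-KO, 5 held GAGGAA and 1 held GAGGAAGT. The 3 windows with the longer letters are shown because 1 belongs to a gene that fell, Ctss at chr3:95526536-95526835. The other 2 belong to genes that passed in no comparison of the main fit, Retnla at chr16:48842359-48842658 and Spp1 at chr5:104434861-104435160. All 3 genes lie on the plus strand, capitals mark the match, and the match begins at -2, -198 and -113 from the start of transcription.
Ctss: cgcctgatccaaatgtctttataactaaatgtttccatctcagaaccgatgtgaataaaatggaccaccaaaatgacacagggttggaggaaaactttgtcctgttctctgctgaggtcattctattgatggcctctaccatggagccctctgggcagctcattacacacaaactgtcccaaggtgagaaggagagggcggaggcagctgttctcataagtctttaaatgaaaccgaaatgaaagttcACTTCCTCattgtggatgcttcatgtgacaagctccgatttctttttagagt
Retnla: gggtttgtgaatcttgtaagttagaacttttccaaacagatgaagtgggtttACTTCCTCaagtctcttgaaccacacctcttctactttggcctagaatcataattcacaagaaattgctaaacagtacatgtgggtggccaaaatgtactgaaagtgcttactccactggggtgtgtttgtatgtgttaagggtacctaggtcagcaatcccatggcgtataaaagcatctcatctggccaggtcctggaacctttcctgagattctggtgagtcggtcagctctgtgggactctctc
Spp1: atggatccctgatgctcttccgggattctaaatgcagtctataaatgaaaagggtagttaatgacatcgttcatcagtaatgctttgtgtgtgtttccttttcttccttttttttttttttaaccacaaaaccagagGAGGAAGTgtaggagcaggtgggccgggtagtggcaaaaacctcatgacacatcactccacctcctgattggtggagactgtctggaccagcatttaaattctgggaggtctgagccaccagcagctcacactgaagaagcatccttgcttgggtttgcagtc
A match is only a run of letters, and PU.1 binding was not measured.

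The Ing1 probe stood at a normalized log2 signal between 12.37 and 12.78 on the 6 arrays of WT and Gadd45a-KO and between 9.13 and 9.60 on the 6 labelled as lacking Ing1. The Gadd45a probe was higher on the arrays labelled as lacking Gadd45a, 10.05 to 10.62 against 9.06 to 9.80, and since it is unknown here whether it lies inside the deletion, it does not check that label. Between 58.2% and 68.1% of 59305 spots per array were well above background. Skeletal muscle transcripts were high on replicate 1 of Gadd45a-KO, Ing1-KO and DKO, with mean deviations of 1.38, 4.10 and 2.19 on the log2 scale against -1.06 to -0.52 on the other 9 arrays. The 12 arrays lie on 3 slides, replicate 1, 2 and 3 of every genotype sharing a slide. The number of arrays limits the precision of every value.

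Macrophage transcripts were lower in DKO than in Gadd45a-KO fat, 8 of 13 lineage genes among them. In each of the other groups most genes did not pass. A gene is said to have fallen or risen where limma's adjusted p, over all 31455 features, was under 0.05. Calls are those of the main fit unless an alternative is named. In DKO against Gadd45a-KO, which asks what loss of Ing1 does where Gadd45a is absent, 15 of 39 genes fell (38.5%) and 0 rose, against 8.47% of all features that fell and 6.49% that rose. Over both directions 15.0% of all features passed. The genes were chosen with earlier results of these data known, so these shares are a description and no test. Of the 31455 features 15950 were named genes, and the share among those is not given here. The fall counted 8 of 13 lineage genes, 4 of 9 inflammatory genes, 2 of 5 alternative activation and scavenger genes, 1 of 6 resident genes and 0 of 6 lipid-associated genes. The median log2 difference of the 39 genes was -0.56 against -0.03 for all features, and by role it was -0.88, -0.62, -0.93, -0.16 and -0.40 in the same order. In bulk fat, fewer macrophages and less of a transcript per macrophage cannot be told apart.

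**Figure D1:**
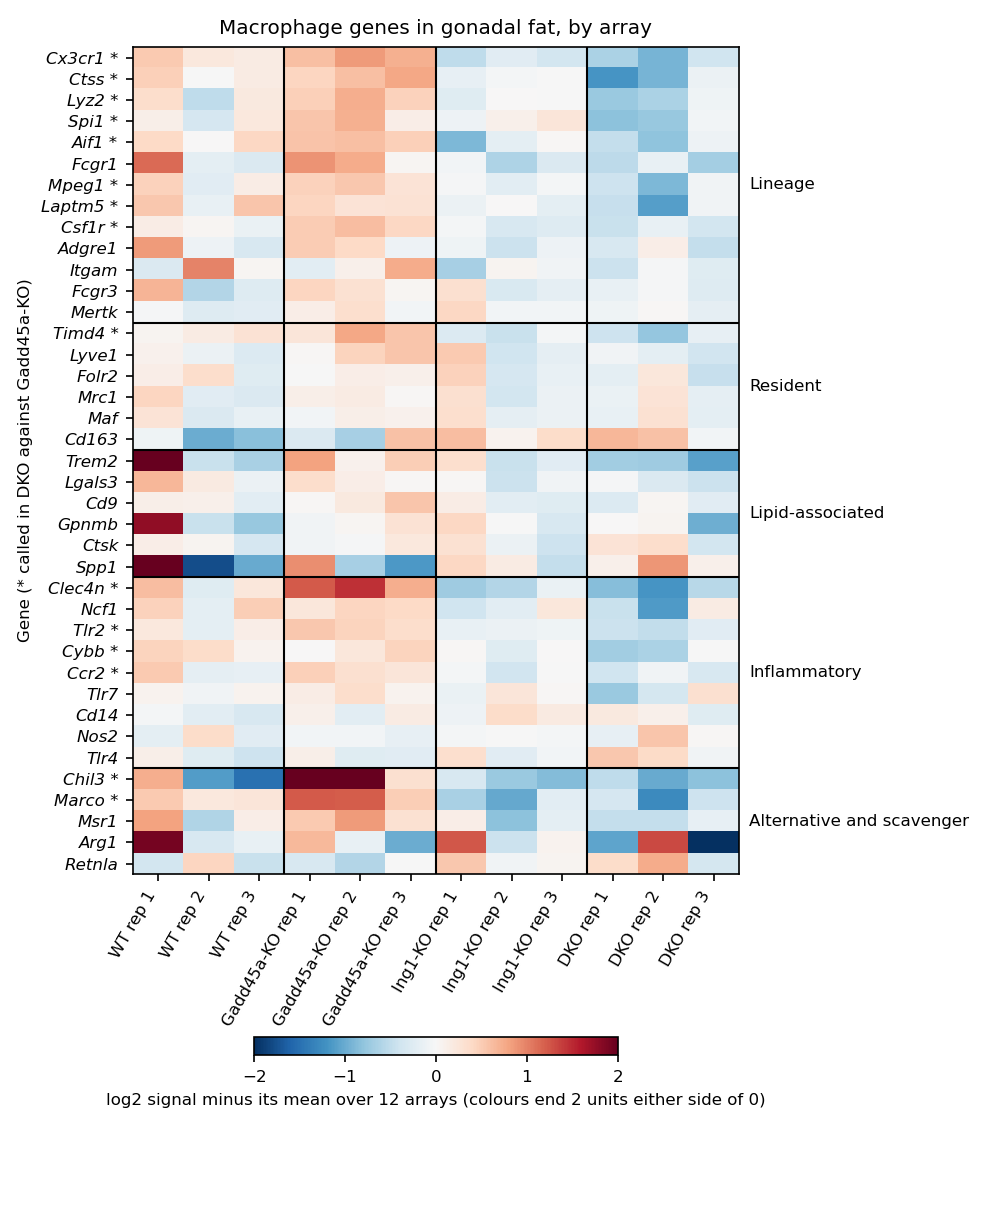
Log2 signal of the 39 genes on the 12 arrays, each gene as the difference from its own mean over the arrays, in groups by role, with an asterisk where the gene fell in DKO against Gadd45a-KO. The lineage and inflammatory genes are mostly above their mean in the Gadd45a-KO arrays and below it in the DKO arrays, and WT replicate 1 is high in Trem2, Gpnmb, Spp1 and Arg1.

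Averaged over Gadd45a status, which takes the mean of Ing1-KO minus WT and DKO minus Gadd45a-KO, loss of Ing1 lowered 12 of 39 genes and raised 0, against 9.09% and 6.93% of all features (16.0% in either direction), with a median of -0.42 against -0.04. All 12 also fell in DKO against Gadd45a-KO, whose arrays both comparisons use. DKO against WT called 1 gene, Cx3cr1, against 0.162% of all features. Limma called 0 of the 39 genes in Gadd45a-KO against WT, where 0% of all features passed. It called 0 for Ing1-KO compared with WT and 0 for DKO compared with Ing1-KO, where 0.00318% passed in each. It also called 0 for Gadd45a loss averaged over Ing1 status (0.00318% of all features) and 0 in the interaction (0%), the test of whether the difference on Ing1 loss depends on Gadd45a. At an unadjusted p under 0.05 these 5 comparisons held 7, 6, 2, 2 and 11 of the 39 genes and 739, 2707, 1103, 294 and 1866 features. The median log2 difference of the 39 genes against WT was 0.26 for Gadd45a-KO, -0.16 for Ing1-KO and -0.43 for DKO. Without WT replicate 1 it was 0.46 for Gadd45a-KO and -0.21 for DKO, and without WT replicate 2 it was 0.135 for Gadd45a-KO. So the difference between DKO and Gadd45a-KO spans a Gadd45a-KO mean above WT, which passed for 0 genes, and a DKO mean below WT, which passed for 1.

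In DKO against WT the arrays did not overlap and DKO was lower for 10 of the 39 genes, against 12.6% of all features. In DKO against Gadd45a-KO this held for 22, against 20.8%. All 15 genes that fell in DKO against Gadd45a-KO are among these 22. That they were lower in DKO on each of the 3 slides follows from this and adds no support. The median of the 39 genes within slides 1, 2 and 3 was -0.82, -0.63 and -0.55 in DKO against Gadd45a-KO. With the slide as a block 17 genes fell in that comparison, the 15 and Fcgr1 and Ncf1, while 19.4% of all features passed. For Ing1 loss averaged over Gadd45a status the slide block gave 19 genes in place of 12: the 12 and Ccr2, Chil3, Fcgr1, Lgals3 and Ncf1 fell and Cd163 and Tlr4 rose, while 20.2% of all features passed. The counts depend on a few arrays. Without the 3 muscle-rich arrays, replicate 1 of Gadd45a-KO, Ing1-KO and DKO, 0 of the 39 genes and 1 of all features passed in DKO against Gadd45a-KO, at a median of -0.63, and 0 passed in the averaged comparison. With the array column as a block these counts were 0 and 1, with 3 and 39 features called in all. Without Gadd45a-KO replicate 2, DKO replicate 1 or DKO replicate 2 the count in DKO against Gadd45a-KO was 7, and without Gadd45a-KO replicate 3 it was 8. The share of all features is not given here for these omissions. With only the 6 arrays compared the count was 8, while 1.60% of all features passed. Of these 8 genes, 7 were among the 15 and Trem2 was new. The sign of the 15 differences was the same under all 26 alternatives tried. With arrays left out it could not change, since the arrays of these genes did not overlap, so those alternatives add no support.

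**Figure D2:**
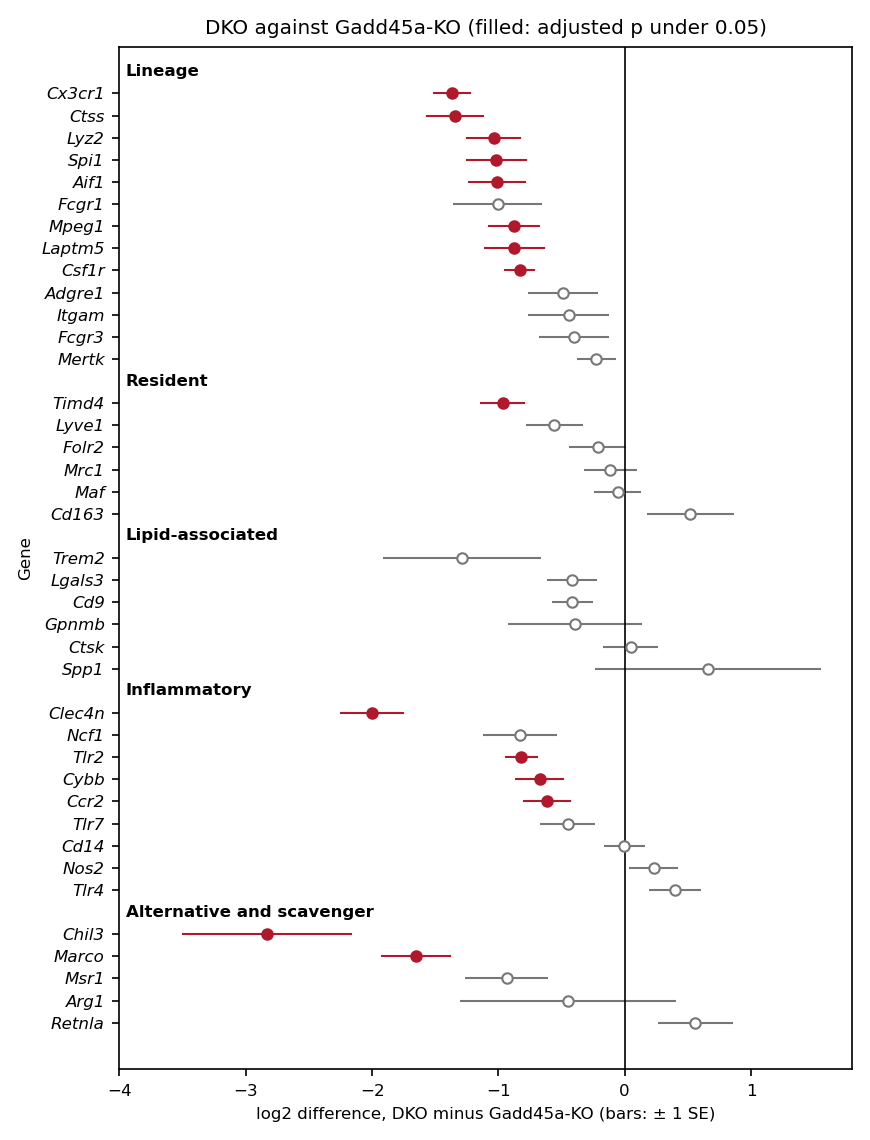
Log2 difference of each of the 39 genes in DKO minus Gadd45a-KO, by role, with bars of 1 SE of the fit to 3 arrays a group, filled where the limma adjusted p was under 0.05. All 13 lineage genes lie left of 0, from Cx3cr1 at -1.37 to Mertk at -0.22, while Mrc1, Folr2 and Maf of the resident group lie within 0.22 of it.

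Cx3cr1, the receptor for fractalkine on monocytes and macrophages, was the only lineage gene whose arrays with and without Ing1 did not overlap. Its log2 signal was 10.80, 10.49 and 10.43 in WT, 10.88, 11.12 and 10.98 in Gadd45a-KO, 9.77, 10.04 and 9.90 in Ing1-KO, and 9.64, 9.35 and 9.88 in DKO. All 6 arrays lacking Ing1 lay below all 6 others. The log2 difference was -1.37 ± 0.15 (SE) in DKO against Gadd45a-KO, a 2.58-fold lower signal with a limma adjusted p of 0.00311, and -0.95 ± 0.15 in DKO against WT with 0.0383. The value against WT passed under only 8 of the 26 alternatives, where it lay between -1.08 and -0.81. Averaged over Gadd45a status it was -1.02 ± 0.11, with an adjusted p of 0.00156 by limma. The other 2 probes gave -1.37 and -1.29 in DKO against Gadd45a-KO.

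Csf1r encodes the receptor for the growth factors Csf1 and Il34, on which macrophage survival depends. Its log2 signal was 14.49, 14.38 and 14.21 in WT, 14.85, 14.96 and 14.76 in Gadd45a-KO, 14.30, 14.03 and 14.08 in Ing1-KO, and 13.90, 14.20 and 13.98 in DKO. All 3 DKO arrays lay below all WT arrays, and these below all Gadd45a-KO arrays. In DKO against Gadd45a-KO it fell 1.78-fold, a log2 difference of -0.83 ± 0.12, with a limma adjusted p of 0.00818, and the averaged difference on Ing1 loss was -0.53 ± 0.09 with 0.00695. Its 2 dimmer probes gave -0.72 and -0.29, so the probes disagree in size. Spi1, the gene of PU.1, stood at 6.70, 6.24 and 6.79 in WT, 7.13, 7.30 and 6.72 in Gadd45a-KO, 6.48, 6.69 and 6.83 in Ing1-KO, and 5.76, 5.82 and 6.53 in DKO. The DKO arrays lay below the Gadd45a-KO arrays and overlapped WT, and the difference was -1.01 ± 0.24 with an adjusted p of 0.0239 by limma. On average over Gadd45a status Spi1 did not pass, at -0.46 ± 0.17.

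Ctss, the lysosomal protease cathepsin S that prepares class II antigen presentation, fell. Of the 3 genes with GAGGAAGT in their promoter windows it is the one that passed in the main fit. Its signal was 14.92, 14.43 and 14.60 in WT, 14.87, 15.05 and 15.22 in Gadd45a-KO, 14.28, 14.40 and 14.43 in Ing1-KO, and 13.27, 13.52 and 14.33 in DKO. DKO replicates 1 and 2 were the lowest of the 12 arrays, and all 3 DKO arrays lay below every WT and Gadd45a-KO array. It fell 2.53-fold in DKO against Gadd45a-KO, at -1.34 ± 0.23 with a limma adjusted p of 0.00990, and by 0.81 on the log2 scale on average. Lyz2, the lysozyme of myeloid cells, was measured at 12.64, 11.78 and 12.47 in WT, 12.75, 13.003 and 12.74 in Gadd45a-KO, 12.04, 12.29 and 12.28 in Ing1-KO, and 11.54, 11.65 and 12.19 in DKO. The 3 Gadd45a-KO arrays were the highest of all 12, and WT overlapped DKO. Its differences were -1.04 ± 0.22 in DKO against Gadd45a-KO and -0.57 ± 0.15 on average, with limma adjusted p of 0.0174 and 0.0316. The near relative Lyz1 may share its probe, which was not tested.

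Aif1, the actin-binding protein known as Iba1, gave 13.55, 13.16 and 13.56 in WT, 13.72, 13.75 and 13.63 in Gadd45a-KO, 12.26, 12.96 and 13.17 in Ing1-KO, and 12.67, 12.35 and 13.05 in DKO. The DKO arrays lay below all WT and Gadd45a-KO arrays, and Ing1-KO overlapped WT. The difference was -1.01 ± 0.23 in DKO against Gadd45a-KO and -0.82 ± 0.16 on average, at limma adjusted p of 0.0201 and 0.0116. Laptm5, a lysosomal membrane protein of blood-derived cells in general, gave 13.56, 12.87 and 13.57 in WT, 13.44, 13.28 and 13.30 in Gadd45a-KO, 12.90, 13.02 and 12.82 in Ing1-KO, and 12.55, 11.91 and 12.94 in DKO. Here DKO lay below Gadd45a-KO and overlapped WT, and both probes gave about the same difference, -0.87 ± 0.24 and -0.93. For the pore-forming protein gene Mpeg1 the arrays read 13.57, 12.89 and 13.27 in WT, 13.58, 13.65 and 13.39 in Gadd45a-KO, 13.09, 12.90 and 13.08 in Ing1-KO, and 12.71, 12.22 and 13.05 in DKO. Again DKO lay below Gadd45a-KO and overlapped WT, with a difference of -0.88 ± 0.21. Limma's adjusted p in DKO against Gadd45a-KO was 0.0342 for Laptm5 and 0.0223 for Mpeg1, and on average over Gadd45a status 0.0274 and 0.0290. Laptm5 passed under 14 of 26 alternatives in DKO against Gadd45a-KO, and Mpeg1 under 19.

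The other 5 lineage genes passed in no comparison of the main fit. They are Adgre1, an adhesion receptor widely used to label mouse macrophages, the integrin gene Itgam, the efferocytosis receptor Mertk and the antibody receptors Fcgr1 and Fcgr3. All 5 had negative differences in DKO against Gadd45a-KO, between -1.01 for Fcgr1 and -0.22 for Mertk. Under the alternatives Fcgr1 fell there 2 times, with the slide as a block and without WT replicate 1. On average over Gadd45a status it fell 4 times, the slide block among them. Itgam fell 1 time in each of these comparisons, with the mean of the probes of a gene. Adgre1 ran from 9.71 to 11.04 with its highest value on WT replicate 1, and its difference of -0.49 ± 0.28 had a limma adjusted p of 0.244. Itgam is unsettled, since its 3 probes gave -0.77, -0.44 and 0.03. Fcgr1 was also highest on WT replicate 1, at 8.58 in a range from 6.76.

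Among resident macrophage genes, Timd4 fell. Timd4 encodes a receptor for phosphatidylserine on long-lived tissue macrophages, and its log2 signal was 10.73, 10.84 and 10.95 in WT, 10.91, 11.44 and 11.23 in Gadd45a-KO, 10.39, 10.23 and 10.63 in Ing1-KO, and 10.26, 9.90 and 10.51 in DKO. All 6 arrays lacking Ing1 lay below all 6 others. It fell 1.95-fold in DKO against Gadd45a-KO, at -0.97 ± 0.18 with a limma adjusted p of 0.0119, and the averaged difference was -0.69 ± 0.12 with 0.00842. Over the 39 genes, arrays with and without Ing1 did not overlap for 3, Cx3cr1, Timd4 and Marco, all lower without it, against 4.91% of all features. The hemoglobin scavenger receptor Cd163 had the opposite sign. It stood at 5.52, 4.62 and 4.78 in WT, 5.32, 4.95 and 6.20 in Gadd45a-KO, 6.23, 5.68 and 5.98 in Ing1-KO, and 6.28, 6.19 and 5.55 in DKO, above background on 11 of 12 arrays. Ing1-KO and DKO both lay above WT, and Gadd45a-KO overlapped all 3. Its averaged difference of 0.76 ± 0.24 had a limma adjusted p of 0.0551 and did not pass, though it did under 7 of 24 alternatives, the slide block among them. Lyve1, a hyaluronan receptor of vessel-lining macrophages and of lymphatic endothelium, gave 9.60, 9.40 and 9.24 in WT, 9.55, 9.96 and 10.07 in Gadd45a-KO, 10.05, 9.12 and 9.34 in Ing1-KO, and 9.45, 9.32 and 9.13 in DKO. DKO lay below Gadd45a-KO, at -0.56 ± 0.22, but with a limma adjusted p of 0.107 this did not pass.

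The mannose receptor Mrc1, the folate receptor Folr2 and the transcription factor Maf lay close together in all genotypes. Mrc1 ran from 11.18 to 11.98, Folr2 from 11.07 to 11.99 and Maf from 11.12 to 11.75 over the 12 arrays, and their groups overlapped in DKO against Gadd45a-KO. Their log2 differences there were -0.11 ± 0.21, -0.21 ± 0.22 and -0.05 ± 0.18. The standard errors leave room for modest changes in either direction, so these values do not show equality. No test compared resident genes with lineage genes as lists.

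**Figure D3:**
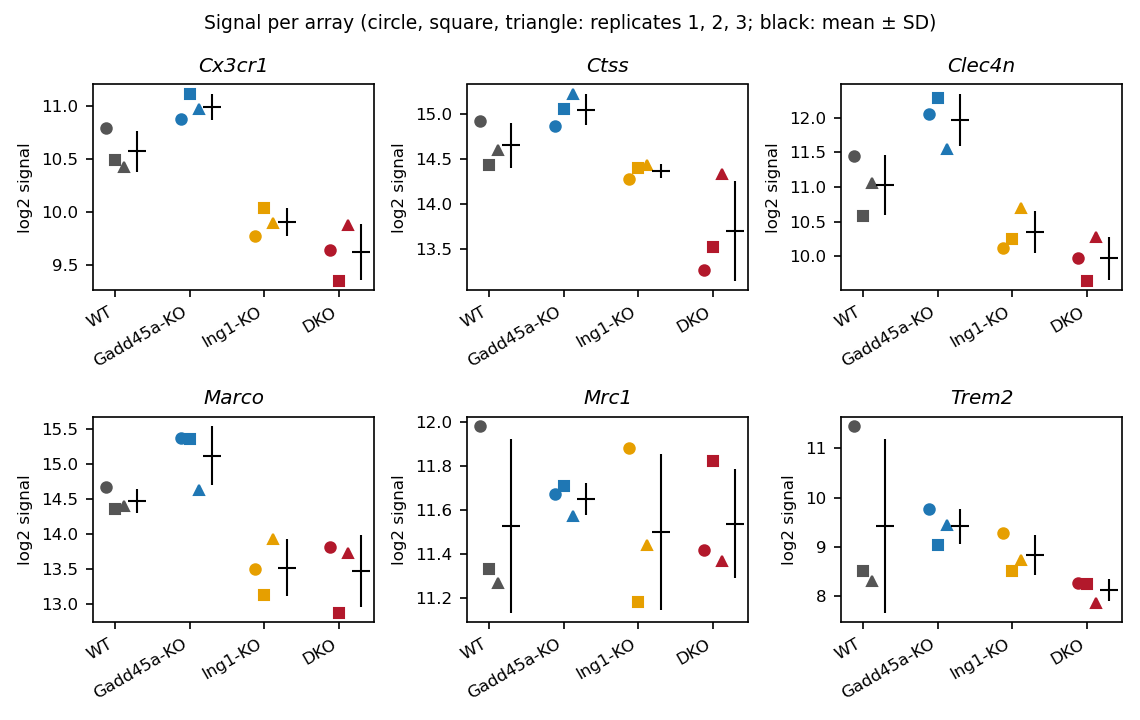
Normalized log2 signal of 6 genes on each of the 12 arrays by genotype, with the mean and SD of 3 arrays in black and a scale of its own for each gene. Cx3cr1 and Marco are lower on all 6 arrays lacking Ing1, Ctss and Clec4n have their lowest arrays in DKO, Mrc1 overlaps between genotypes, and Trem2 shows WT replicate 1 at 11.45 far above the others.

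Of the 6 lipid-associated genes, 0 passed by limma in any comparison of the main fit, and WT replicate 1 stood apart. Under the alternatives, Trem2 fell 2 times in DKO against Gadd45a-KO, with only the arrays compared and without WT replicate 1. Cd9 fell there 1 time, with the array row as a block. Lgals3 fell 3 times on average over Gadd45a status, with the slide as a block, quantile normalization and without WT replicate 3. Trem2, the lipid receptor that marks these cells, gave 11.45, 8.51 and 8.31 in WT, 9.76, 9.04 and 9.45 in Gadd45a-KO, 9.29, 8.51 and 8.73 in Ing1-KO, and 8.26, 8.24 and 7.87 in DKO. WT replicate 1 was the highest array and lay 2.94 above WT replicate 2. All DKO arrays lay below all arrays of the other genotypes, and the difference in DKO against Gadd45a-KO was -1.29 ± 0.63, with a limma adjusted p of 0.175. Without WT replicate 1, whose spread enters every test, Trem2 passed in DKO against Gadd45a-KO, with a limma adjusted p of 0.0172, the lowest over the alternatives, which reached 0.422. Gpnmb, a lysosomal glycoprotein, and Spp1, which encodes osteopontin, were highest on the same array, at 10.08 and 6.95 against 7.34 to 8.72 and 2.68 to 5.38 on the others. Spp1 was above background on 7 of 12 arrays. The mean deviation of the 6 genes was 1.28 on WT replicate 1 and between -0.52 and 0.33 on the other 11 arrays.

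Galectin-3, from Lgals3, was read at 14.50, 14.03 and 13.72 in WT, 14.20, 13.97 and 13.86 in Gadd45a-KO, 13.87, 13.41 and 13.77 in Ing1-KO, and 13.82, 13.55 and 13.41 in DKO. DKO lay below Gadd45a-KO, at -0.42 ± 0.20, and the averaged difference on Ing1 loss was -0.41 ± 0.14, which did not pass with a limma adjusted p of 0.0666. With the slide as a block it passed, at an adjusted p of 0.0210 by limma, and it did so under 3 of 25 alternatives, over which the adjusted p ran from 0.0210 to 0.207. The tetraspanin gene Cd9 stood at 11.77, 11.76 and 11.44 in WT, 11.68, 11.85 and 12.21 in Gadd45a-KO, 11.81, 11.45 and 11.42 in Ing1-KO, and 11.39, 11.69 and 11.43 in DKO. Its groups overlapped, at -0.41 ± 0.16 in DKO against Gadd45a-KO. Ctsk, the protease cathepsin K, ran from 11.29 to 12.05 with a difference of 0.05 ± 0.22. Cd9, Lgals3 and Ctsk are also expressed by other cells of fat.

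Among the inflammatory genes, Clec4n showed the widest difference that passed. Clec4n encodes dectin-2, a receptor for fungal mannans, and its log2 signal was 11.45, 10.58 and 11.06 in WT, 12.06, 12.29 and 11.55 in Gadd45a-KO, 10.12, 10.25 and 10.69 in Ing1-KO, and 9.98, 9.65 and 10.28 in DKO. The Gadd45a-KO arrays were the highest of all and the DKO arrays lay below all WT arrays. It was 4.00-fold lower in DKO than in Gadd45a-KO, at -2.00 ± 0.25 with a limma adjusted p of 0.00532, and the averaged difference was -1.34 ± 0.18 with 0.00378. Tlr2, a receptor for bacterial lipoproteins, stood at 9.73, 9.32 and 9.66 in WT, 10.06, 9.96 and 9.87 in Gadd45a-KO, 9.37, 9.41 and 9.44 in Ing1-KO, and 9.09, 9.03 and 9.30 in DKO. All 3 DKO arrays lay below the 9 others. Its differences were -0.82 ± 0.13 in DKO against Gadd45a-KO and -0.49 ± 0.09 on average, at limma adjusted p of 0.00908 and 0.00986.

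Cybb, the catalytic subunit of the phagocyte oxidase, gave 9.18, 9.10 and 8.80 in WT, 8.74, 8.95 and 9.17 in Gadd45a-KO, 8.75, 8.49 and 8.74 in Ing1-KO, and 8.03, 8.09 and 8.72 in DKO. DKO lay below WT and below Gadd45a-KO, which overlapped each other. The differences of -0.67 ± 0.20 in DKO against Gadd45a-KO and -0.52 ± 0.14 on average passed with limma adjusted p of 0.0407 and 0.0295, the first under 10 of 26 alternatives. Ccr2 stood at 10.12, 9.42 and 9.44 in WT, 10.08, 9.91 and 9.84 in Gadd45a-KO, 9.56, 9.22 and 9.59 in Ing1-KO, and 9.20, 9.52 and 9.27 in DKO. DKO lay below Gadd45a-KO and overlapped WT, and its call was the least stable of the 15: -0.62 ± 0.19 with a limma adjusted p of 0.0480, held under 9 of 26 alternatives. The other 5 did not pass in the main fit. Under alternatives Ncf1 fell in DKO against Gadd45a-KO and on average, with the slide as a block, without WT replicate 2 or without DKO replicate 3. It also fell in DKO against WT without DKO replicate 3. Tlr7 fell in DKO against Gadd45a-KO and on average without DKO replicate 3, and Tlr4 rose on average with the slide as a block. Ncf1, an activating subunit of the same oxidase, had -0.83 ± 0.29 with a limma adjusted p of 0.0717, and Tlr7 had -0.45 ± 0.22, with -0.74 on its other probe. Cd14, the co-receptor for endotoxin, and its partner Tlr4 had -0.00 ± 0.16 and 0.40 ± 0.21, and Nos2, the inducible nitric oxide synthase, 0.23 ± 0.19.

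Of the alternative activation and scavenger genes, Marco and Chil3 fell. Marco encodes a scavenger receptor that binds bacteria and particles, and its signal was 14.68, 14.36 and 14.40 in WT, 15.38, 15.36 and 14.64 in Gadd45a-KO, 13.50, 13.13 and 13.94 in Ing1-KO, and 13.82, 12.88 and 13.73 in DKO. All 6 arrays lacking Ing1 lay below all 6 others. It was 3.14-fold lower in DKO than in Gadd45a-KO, at -1.65 ± 0.28 with a limma adjusted p of 0.00990, and its averaged difference was -1.30 ± 0.20 with 0.00589. Chil3, a chitinase-like protein of alternatively activated macrophages that neutrophil precursors also make, stood at 7.99, 6.14 and 5.77 in WT, 10.46, 9.90 and 7.58 in Gadd45a-KO, 6.95, 6.52 and 6.39 in Ing1-KO, and 6.76, 6.25 and 6.45 in DKO. Gadd45a-KO replicates 1 and 2 were far above all other arrays, while WT, Ing1-KO and DKO overlapped. Its difference in DKO against Gadd45a-KO was -2.83 ± 0.67 with a limma adjusted p of 0.0229, against -0.15 ± 0.67 in DKO against WT. Within slides 1, 2 and 3 it was -3.70, -3.66 and -1.14. Its probe may also bind the near relative Chil4, which was not tested.

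Msr1, the class A scavenger receptor for modified lipoproteins, did not pass in the main fit, with 7.78, 6.38 and 7.11 in WT, 7.51, 7.83 and 7.28 in Gadd45a-KO, 7.12, 6.16 and 6.79 in Ing1-KO, and 6.51, 6.50 and 6.81 in DKO. DKO lay below Gadd45a-KO, at -0.93 ± 0.33, with a limma adjusted p of 0.0729. Arg1, the arginase of alternative activation, was above background on 7 of 12 arrays, ran from 2.04 to 6.04 and had a difference of -0.45 ± 0.85. Retnla, a secreted protein induced by Il4, ran from 14.40 to 15.73 with its groups overlapping, and had the opposite sign at 0.56 ± 0.30.

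Genes that work with these receptors were counted from lists of textbook partners. In DKO against Gadd45a-KO 8.47% of all features fell and 6.49% rose, and on average over Gadd45a status 9.09% fell and 6.93% rose. Of 11 signalling adaptors and enzymes, 9 fell and 0 rose in DKO against Gadd45a-KO, and 8 fell on average over Gadd45a status. They include Tyrobp (-0.82 ± 0.22) and Fcer1g (-0.88 ± 0.15), the signalling chains of Trem2, Clec4n and the antibody receptors, the kinase gene Syk (-0.94 ± 0.18) that they recruit, and the oxidase subunits Cyba (-1.01 ± 0.16) and Ncf4 (-0.98 ± 0.27). Vav1, Inpp5d and Plcg2 also fell, while Myd88 and Ly96, which serve the Toll-like receptors, had -0.23 ± 0.10 and -0.25 ± 0.16 and did not pass. Among the transcription factors, Irf8 (-0.99 ± 0.21) and Tfec (-1.34 ± 0.36) fell in DKO against Gadd45a-KO, and Cebpa rose (0.78 ± 0.22), a factor that fat cells also express. Nr1h3 rose too on average over Gadd45a status.

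Of 11 ligands, Cx3cl1, the ligand of Cx3cr1, and Tgfb1 fell in DKO against Gadd45a-KO, at -0.55 ± 0.11 and -0.73 ± 0.20. Of all features 8.47% fell in that comparison. Ccl2, the ligand of Ccr2, fell on average over Gadd45a status, by 0.69 on the log2 scale. The Csf1r ligands Csf1 and Il34 had -0.13 ± 0.14 and 0.51 ± 0.20 in DKO against Gadd45a-KO and did not pass. Of 14 further macrophage genes, 5 fell: the complement genes C1qa (-0.54 ± 0.14) and C1qc (-0.69 ± 0.19), the sialic acid receptor Siglec1 (-1.32 ± 0.22), the scavenger receptor family gene Cd5l (-3.41 ± 0.67) and Cd74 (-0.73 ± 0.20), the invariant chain. The lipid genes Lpl and Fabp5, which fat cells share, rose, at 0.72 ± 0.16 and 0.74 ± 0.23. Cd5l stood at 13.15 and 13.12 on Gadd45a-KO replicates 1 and 2 and at 10.78 on replicate 3, the same arrays in order of Chil3.

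Transcripts of other leukocytes and of fat cells moved in the same comparison, where 8.47% of all features fell and 6.49% rose. In DKO against Gadd45a-KO, 11 of 12 T cell markers fell with a median of -1.11, 7 of 10 neutrophil markers with a median of -2.70, 4 of 10 dendritic cell markers with -0.64, 4 of 8 monocyte markers with -0.35, 3 of 7 natural killer cell markers with -0.73 and 2 of 8 B cell markers with -0.76. For mast cells the median was -0.57 over 6 markers, 0 of which passed. Of 9 proliferation genes 7 fell, with a median of -1.03, and 5 of 10 adipocyte markers rose, with a median of 0.76. Adipocyte progenitor markers had a median of 0.11 with 0 of 8 past the threshold, 1 of 6 endothelial markers and 1 of 4 mesothelial markers rose, and 0 of 8 skeletal muscle markers passed, with medians of 0.33, -0.50 and 0.13.

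The log2 summed level of the T cell markers was 16.67 to 16.97 in WT, 16.83 to 17.24 in Gadd45a-KO, 16.12 to 16.73 in Ing1-KO and 15.38 to 16.46 in DKO. For the neutrophil markers these ranges were 16.78 to 16.98, 16.97 to 17.29, 16.60 to 16.75 and 16.62 to 16.79, and for the adipocyte markers 19.90 to 20.59, 19.79 to 20.05, 20.11 to 20.27 and 20.15 to 20.65. The neutrophil mean deviation was 2.78 and 1.88 on Gadd45a-KO replicates 1 and 2, the arrays highest in Chil3, and 0.64 on replicate 3. DKO replicate 2 was lowest in T cell markers, at -1.29 against -0.50 and -0.01 on the other DKO arrays. It was also the lowest array in Cx3cr1, Laptm5, Mpeg1, Timd4, Clec4n, Tlr2, Ncf1 and Marco. In B cell, natural killer cell and dendritic cell markers it was lowest too, at -1.16, -0.79 and -0.60. In monocyte, neutrophil and mast cell markers it was not, at -0.12, -0.60 and 0.51. The part of other cell types in the lower macrophage signal was not tested.

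**Figure D4:**
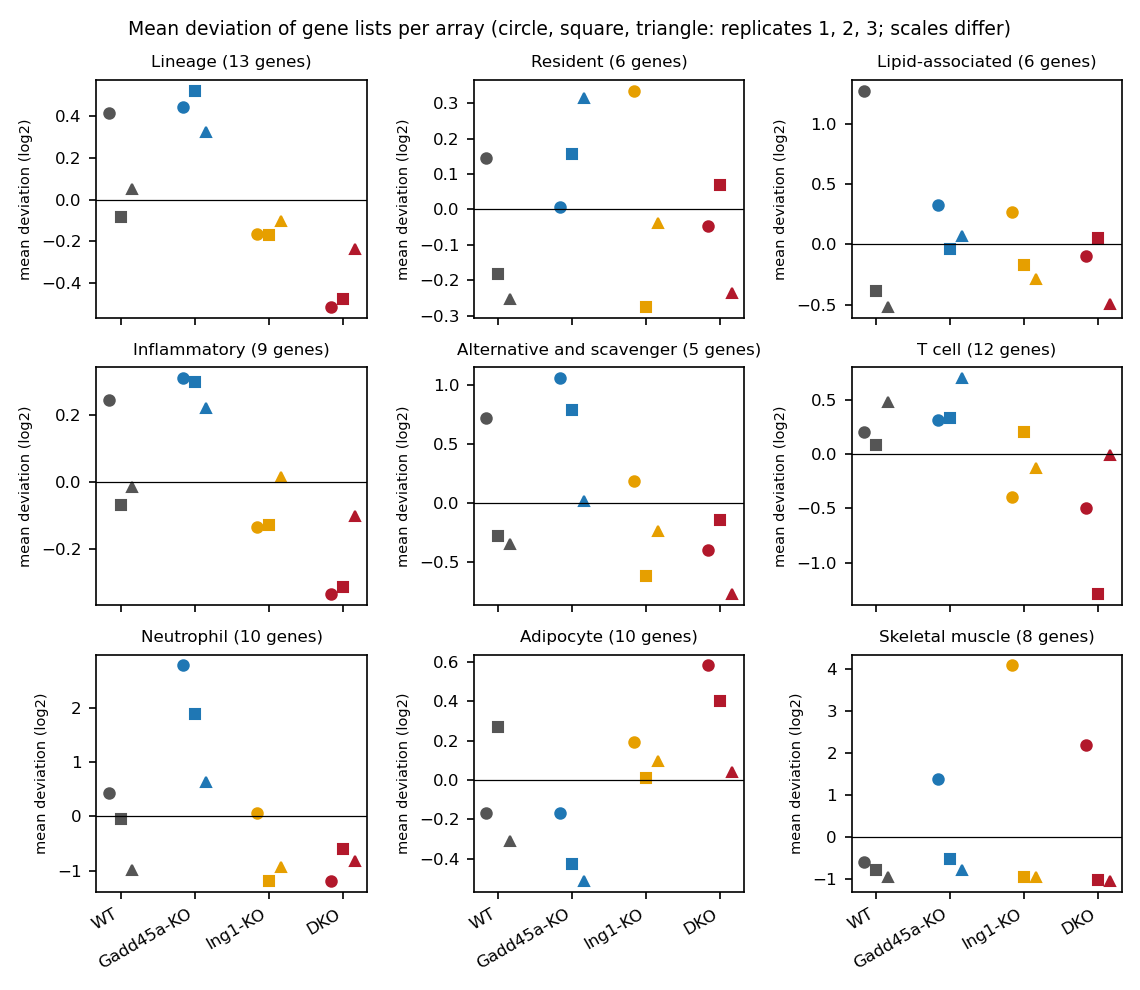
Mean deviation of each gene list from its mean over the 12 arrays, on the log2 scale, per array and genotype, for the 5 macrophage groups and for T cell, neutrophil, adipocyte and skeletal muscle markers, with a scale of its own for each list. The 3 DKO arrays are lowest in the lineage genes (-0.51, -0.48 and -0.24) and the 3 Gadd45a-KO arrays lie between 0.32 and 0.52, next to WT replicate 1 at 0.41.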

How the data were processed

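Total RNA of gonadal white fat was hybridised to 12 Agilent 1-colour arrays. Per the file headers, the deposited intensity values come from Feature Extraction 10.7.3.1, whose processed signal is already background-subtracted. The authors' own deposited table is on the log2 scale, and the submitters' processing notes name limma 3.26.9. Its columns have medians between 7.82 and 7.85 and were used as an alternative only.

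The log2 processed signal was shifted to a common 75th percentile per array, without outlier-marked spots. Probes well above background on at least 3 arrays were kept, with the brightest probe for each gene named by RefSeq accession (20883 genes on the array). limma 3.58.1 (R 4.3.3) fitted 1 mean per genotype over all 12 arrays (8 residual degrees of freedom, intensity trend, robust moderation), two-sided, with Benjamini-Hochberg adjustment and a threshold of 0.05. Differences are log2, with the standard error of the fit. Simulated data in which 200 genes differ served to test the fit.

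The members and lists were chosen with earlier results of these data known. Named are all members. Those past the threshold in any comparison, or among the 3 smallest p of their group, have their value on every array, and of the partner lists genes past the threshold or with the smallest p. Csf1, Il34, Myd88 and Ly96 were named for their receptors. Some genes of the partner lists are not reported here.

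The replicate number equals the slide, per the file headers. The correlation of deviations from the group means was between -0.28 and 0.42 over 18 same-numbered pairs of arrays (median 0.12) and between -0.36 and 0.31 over 36 others. Alternatives were quantile normalization, median centring, normexp (offset 50), the authors' values, other filters, every probe, the mean of probes, plain moderation, only the arrays compared, slide, array row or column as a block, and each array left out. A fit that omits the 3 muscle-rich arrays was added after seeing the data.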

Additional observations from a re-analysis of the deposited data

Results flagged for a closer look

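For 8 of the 39 genes all 3 Gadd45a-KO arrays lay above the WT mean and all 3 DKO arrays below the Ing1-KO mean. How many of all features share this pattern was not counted, so whether 8 is many cannot be said. The mean log2 differences in these 2 comparisons are given in that order. Lyz2 had 0.53 and then -0.41. Mertk had 0.31 and then -0.19. Cx3cr1 had 0.42 and then -0.28. Spi1 had 0.47 and then -0.63. Ctss had 0.40 and then -0.66. Lyve1 had 0.45 and then -0.20. Clec4n had 0.94 and then -0.39. Tlr2 had 0.39 and then -0.27. With arrays matched by slide the opposite signs held on all 3 slides for 4 of the 8, Lyz2, Cx3cr1, Clec4n and Tlr2, and not for Mertk, Spi1, Ctss and Lyve1. On loss of Ing1, Mertk was the only one of the 39 genes with such a pattern, with 0.27 in Ing1-KO against WT and -0.22 in DKO against Gadd45a-KO. The test of the difference itself, the interaction, did not pass for any of these genes, with a limma adjusted p of 0.728 for each. Its unadjusted p by limma lay between 0.00313 for Clec4n and 0.0635 for Lyve1, and its log2 value between -1.33 for Clec4n and -0.49 for Mertk. The genes were picked by the opposite signs that the interaction measures, so these unadjusted p add no support. The same 3 WT and 3 DKO arrays serve several of these differences.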

How the results depend on the processing

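The 15 genes called in DKO against Gadd45a-KO kept their sign under all alternatives that could be fitted. So did the 12 called on average over Gadd45a status. For the 15 the sign could not change with arrays left out, since their DKO and Gadd45a-KO arrays did not overlap. In DKO against WT, Cx3cr1 gave way to 0 genes with centring on the median, the authors' values, no filter, the mean of probes, plain moderation, only the arrays compared, the array row or column as a block, or without the 3 muscle-rich arrays, replicate 1 of each mutant. Of all features 0.162% passed there in the main fit and 0.00954% with the array row. It was 0.00318% with only the arrays compared, with the array column, or without the muscle-rich arrays. Leaving out each array in turn gave 0 to 11 genes in DKO against WT, 11 without DKO replicate 3 and 6 without WT replicate 2. The share of all features is not given here for single arrays left out, so those counts cannot be set against it. In DKO against Gadd45a-KO the count was 8 with only the arrays compared, 0 with the array column as a block, 0 without the 3 muscle-rich arrays, and 7 to 17 with each array left out. On average over Gadd45a status the count was 19 with the slide as a replicate block, where 20.2% of all features passed. It was 1 with the array column (0.124%), 0 without the 3 muscle-rich arrays (0.00318%), and 8 to 17 with each array left out. The replicate block left the count at 1 in DKO against WT and at 17 against 15 in DKO against Gadd45a-KO. With it 2.08% and 19.4% of all features passed, against 0.162% and 15.0% in the main fit. Whether the numbers pair the arrays beyond the shared slide is not settled, since not every same-numbered pair correlated above 0.1. With each array left out, the median of the 39 genes ranged from 0.14 to 0.46 in Gadd45a-KO against WT (0.46 without WT replicate 1) and from -0.49 to -0.21 in DKO against WT (-0.21 without WT replicate 1). The causes were not tested. Signal limits Cd163, Spp1 and Arg1, which were below background on 1, 5 and 5 of 12 arrays.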
